A study of Mus musculus with 6 samples.

Results

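The messages described here carried at least 60 ribosome footprints on their last 5 codons, the stretch of coding sequence that a ribosome reads just before it stops. They were chosen by adding the footprints deposited for that window in the control and the knockdown library, and 980 of 6535 transcript rows (15.0%) reached the threshold. These 980 messages held 77.7% of all footprints in the window and 53.0% of all coding sequence (CDS) footprints of the table. All cells were wild-type E14, an established line of mouse embryonic stem cells grown on gelatin in medium with serum and LIF. They received a non-targeting pool of siRNAs (siCtrl) or a pool against pyruvate kinase M (siPKM) at 20 nM for 36 h, were passaged 16 h before harvest, and were given cycloheximide at 100 µg/ml for 2 min. Each condition had 1 library of ribosome-protected fragments (RPF, here called footprints) and 1 library of total RNA depleted of rRNA. With 1 library per group no test of siPKM against siCtrl was possible, and no difference below has a replicate check.

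Translation ends when a stop codon enters the ribosome. Release factors then free the finished protein, and recycling factors split the ribosome from the message. A footprint marks where a ribosome stood, so ribosomes that wait on the last codons or at the stop leave more footprints there than ribosomes that pass quickly. RNA reads from the same window pass through no ribosome and were used as the comparison. Footprints were cut with RNase A and RNase T1, which cut next to particular bases, and the part of base composition in so short a window was not tested. Codon and protein sequences of these ends were not used here, so no sequence is shown.

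Throughout, the share of a message is the percent of its CDS reads (first 15 codons, middle and last 5 codons together) that lay in its last 5 codons, and intervals are 95% intervals that cover counting error only. A share needs no scaling between libraries, but it is larger in a short message, where 5 codons are a larger part of the coding sequence. Coding lengths were not used here, and the RNA share of the same message stands beside each footprint share. How a read was assigned to a window, and whether the stop codon itself was counted, could not be read from the labels or the table's header.

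The 4 libraries held 10940215 to 16589510 CDS reads. Pkm (Pkm2 in the table), the gene targeted by the siRNA, held 0.496% of CDS reads in siCtrl RNA and 0.157% in siPKM RNA, and 0.522% and 0.167% of footprints. Of 11 embryonic stem cell markers 10 were in the table, with summed levels of 5235 to 6920 CPM (CDS reads scaled to the library's CDS total), and Nanog was not among the symbols found. Of 5 trophoblast markers 3 were found (74.7 to 96.4 CPM, summed), of 5 primitive endoderm markers 1 (14.3 to 34.1), of 4 fibroblast markers 1 (228 to 514) and of 3 neural markers 3 (119 to 173). The fibroblast marker Vim was higher in both siPKM libraries and the summed neural markers were lower, and their part in the results was not tested. Every row had more than 150 reads in the middle of the CDS in each library, so weakly expressed messages are not analysed here.

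Footprints in the last 5 codons were a small part of all footprints. Pooled over the 980 messages, they made up 1.62% of CDS footprints in siCtrl (142557 of 8824551, interval 1.61 to 1.62) and 1.65% in siPKM (119062 of 7228385, 1.64 to 1.66). The RNA reads of the same messages had 2.05% (2.04 to 2.07) and 2.04% (2.02 to 2.05) there. The pooled footprint share was thus below the RNA share in both conditions. The pooled footprint share was slightly higher in siPKM than in siCtrl, whereas the median message had 1.84% in siCtrl and 1.83% in siPKM. Medians of the RNA share were 1.79% and 1.72%. In the 5555 messages under the threshold the pooled shares were 0.524% and 0.536% of footprints and 0.902% and 0.871% of RNA reads. Over all 6535 rows, which the choice of messages does not touch, 1.10% (siCtrl) and 1.12% (siPKM) of footprints lay there, against 1.46% and 1.41% of RNA reads.

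Cytosolic ribosomal proteins and replication-dependent histones weighed heavily in the pooled values. Without them, the other 898 messages had 1.47% and 1.5% of footprints and 1.58% and 1.56% of RNA reads in the window. The beginning of the CDS stood the other way. The first 15 codons held 9.29% of CDS footprints in siCtrl and 9.09% in siPKM, but 5.56% and 5.47% of RNA reads. Per codon, the last 5 codons carried 0.522 (siCtrl) and 0.544 (siPKM) times as many footprints as the first 15, and 1.11 and 1.12 times as many RNA reads. RNA coverage was thus about even between the ends, while footprints were denser at the start.

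Messages differed widely from each other and little between the conditions. In siCtrl the footprint share ran from 0.116% to 26.0%, with 262 messages under 1%, 144 at 5% or more and 16 at 10% or more. Across the 980 messages the siCtrl and siPKM footprint shares had a Spearman correlation of 0.961, and the RNA shares of 0.917. Footprint and RNA shares were less alike, at 0.642 in siCtrl and 0.636 in siPKM. The points of these correlations share the coding length of each message, and genes are not independent replicates. When messages were sorted by their siPKM RNA share into 4 classes of 245, the median siCtrl footprint share was 0.872%, 1.43%, 2.27% and 4.36% from the lowest class to the highest, beside siCtrl RNA medians of 0.690%, 1.34%, 2.37% and 4.64%. The median footprint share was above the RNA median in the lowest class and below it in the highest. Messages were chosen by footprints in the window, which favours high footprint shares where RNA shares are low. Nothing is therefore read from this order.

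**Figure D1:**
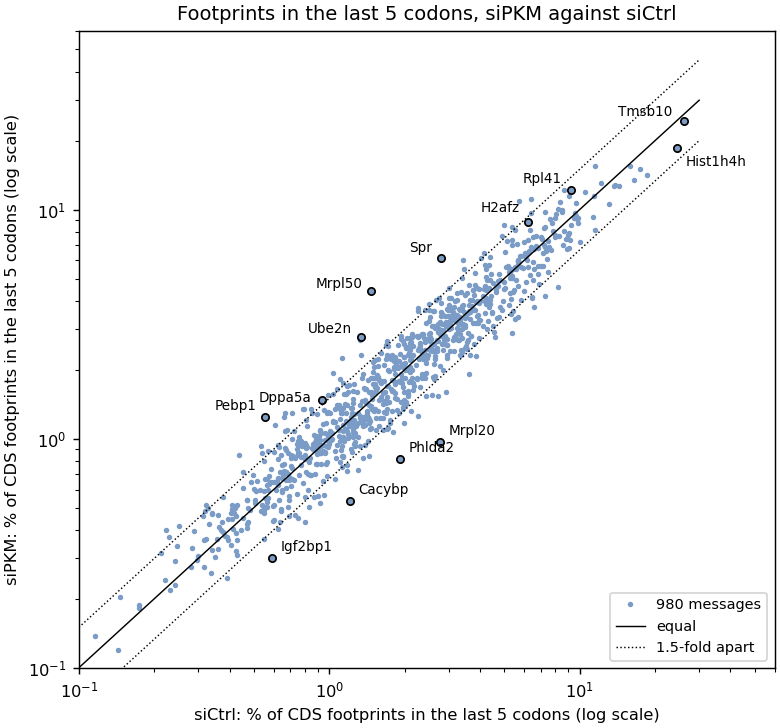
Percent of CDS footprints in the last 5 codons in siCtrl (x axis) and siPKM (y axis), both on log scales, with 1 point for each of the 980 messages, a solid line for equal shares and dotted lines 1.5-fold apart. Most points lie between the dotted lines, with 53 messages at least 1.5-fold higher and 44 at least 1.5-fold lower in siPKM.

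The highest siCtrl footprint shares began with Tmsb10, a small peptide that binds actin monomers. It had 576 of 2217 CDS footprints in the window in siCtrl (26.0%) and 488 of 2004 in siPKM (24.4%), and its RNA shares were 24.7% and 23.0%. The histone H4 messages Hist1h4h (H4c8) and Hist1h4i (H4c9) followed, with 24.5% and 18.6% of siCtrl footprints and 18.6% and 14.1% in siPKM. Their RNA shares were higher, at 31.1% and 29.6% in siCtrl and 33.5% and 33.6% in siPKM. The histone H3 message Hist1h3c (H3c3) had 13.7% and 12.6% of footprints against 35.3% and 33.6% of RNA reads. With all CDS reads as the denominator, the footprint share of Tmsb10 was close to its RNA share, and in these 3 histone messages the RNA share was the higher one. Without the first 15 codons in the denominator this held for Hist1h4i and Hist1h3c, while Hist1h4h turned to 0.69 and 0.46 on the log2 scale of footprint over RNA share, and Tmsb10 moved to 0.83 and 0.91. Histone genes have near-identical copies, and the handling of multi-mapping reads is not known from the labels, so single histone values are uncertain.

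The other 6 messages of the first 10 had a footprint share above the RNA share in both conditions, with intervals of the ratio above equality. Footprints in the window chose and ranked these messages, so their ratios to RNA are a description. Znrd1, a subunit of RNA polymerase I, had 16.5% and 13.5% of siCtrl and siPKM footprints in the window, against 4.55% and 6.24% of RNA reads. Dpy30, a subunit of histone H3 methyltransferase complexes, had 13.9% and 12.8% against 4.64% and 4.60%. Ndufb11, an accessory subunit of respiratory complex I, had 14.4% and 12.6% against 5.12% and 3.76%. These 3 had more than 2-fold the RNA share in each condition. Zfp706, a small zinc finger protein, had 17.4% and 15.0% against 7.22% and 8.53%. Ifitm1, an interferon-induced membrane protein, had 15.8% and 15.5% against 8.94% and 5.39%. Tceal8 had 13.1% and 10.6% against 6.78% and 4.92%, on 35 and 21 RNA reads.

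The most footprints in the window, both libraries added, fell on messages of ribosomal proteins, a chaperone and chromatin proteins. Rpl41, a very short protein of the large ribosomal subunit, had 3265, the heat shock protein Hsp90ab1 2728, the ubiquitin and ribosomal protein fusion Rps27a 2575 and Rpl38 2472. Gnb2l1 (Rack1), a scaffold on the small ribosomal subunit, had 2452, Trim28, a transcriptional corepressor, 2446, Rpl23a 2423 and H2afz (H2az1), the histone variant H2A.Z, 2282. The median message had 133. A set of 128 messages held 50% of the 261619 footprints counted in the window over all 980.

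Among these frequent messages Trim28 stood farthest above its RNA. It had 1497 footprints in the window in siCtrl (1.94%) and 949 in siPKM (1.91%), but 0.474% and 0.467% of its RNA reads lay there. The log2 ratio of footprint share to RNA share was 2.03 in siCtrl (1.83 to 2.23) and 2.03 in siPKM (1.80 to 2.27). Rps27a stood at 6.19% and 6.45% of footprints against 3.56% and 4.02% of RNA reads, and Gnb2l1 at 2.56% and 2.71% against 1.86% and 1.88%. Rpl38 (7.54% and 6.87% against 6.51% and 6.44%) and Rpl23a (4.22% and 4.45% against 3.48% and 3.67%) were nearer to their RNA. Hsp90ab1 had 1.07% and 0.938% of footprints against 0.669% and 0.694% of RNA reads, while the other cytosolic Hsp90, Hsp90aa1, was below its RNA with 0.573% and 0.633% against 0.861% and 0.873%.

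In some short messages the share of the end depended on how many footprints lay at the start. Rpl41 had 9.20% of its siCtrl footprints in the last 5 codons and 89.6% in the first 15, whereas its RNA reads had 27.9% and 52.7% there. With all CDS reads as the denominator its log2 ratio of footprint to RNA share was -1.60 (-1.69 to -1.51) in siCtrl and -1.33 in siPKM. With the first 15 codons left out of the denominator, these became 0.59 and 0.53, the opposite sign. Hist1h4h turned in the same way, from -0.34 and -0.85 to 0.69 and 0.46, and Hist1h2bb (H2bc3) from -0.60 and -0.24 to 0.066 and 0.21. Tmsb10 moved from 0.07 and 0.08 to 0.83 and 0.91, with 49.8% of its siCtrl footprints and 15.0% of its siCtrl RNA reads in the first 15 codons.

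Footprint and RNA shares were compared in the messages with at least 10 RNA reads in the window of that condition, 922 in siCtrl and 907 in siPKM. The footprint share was at least 1.5-fold above the RNA share in 240 messages (26.0%) in siCtrl and in 251 (27.7%) in siPKM. It was at least 1.5-fold below in 270 (29.3%) and 256 (28.2%). Over all rows with 10 RNA reads there, 11.2% were higher and 55.3% lower in siCtrl, and 12.3% higher and 54.8% lower in siPKM. Footprints in the window chose the messages, so nothing is read from the difference to all rows. When rows were chosen instead by at least 60 RNA reads in the window over both RNA libraries (976 rows), 109 were higher and 527 lower in siCtrl, and 130 and 497 in siPKM. The median log2 ratio of the messages was 0.02 in siCtrl and 0.01 in siPKM, and that of all rows was -0.74 in both.

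The conditions share no library. Across the 888 messages with 10 RNA reads in each RNA library their ratios had a Spearman correlation of 0.822. It is a description over messages, each of which has its own coding length in both conditions. In these 888 messages, 159 were higher in both conditions (72.6% of those higher in siCtrl and 66.0% of those higher in siPKM) and 195 were lower in both (72.8% and 76.5%). The same overlap was not counted over all rows, so nothing particular to these messages is read from it. The remaining 92 messages had fewer than 10 RNA reads in the window in at least 1 RNA library, and 2 messages in each RNA library had no RNA read there.

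**Figure D2:**
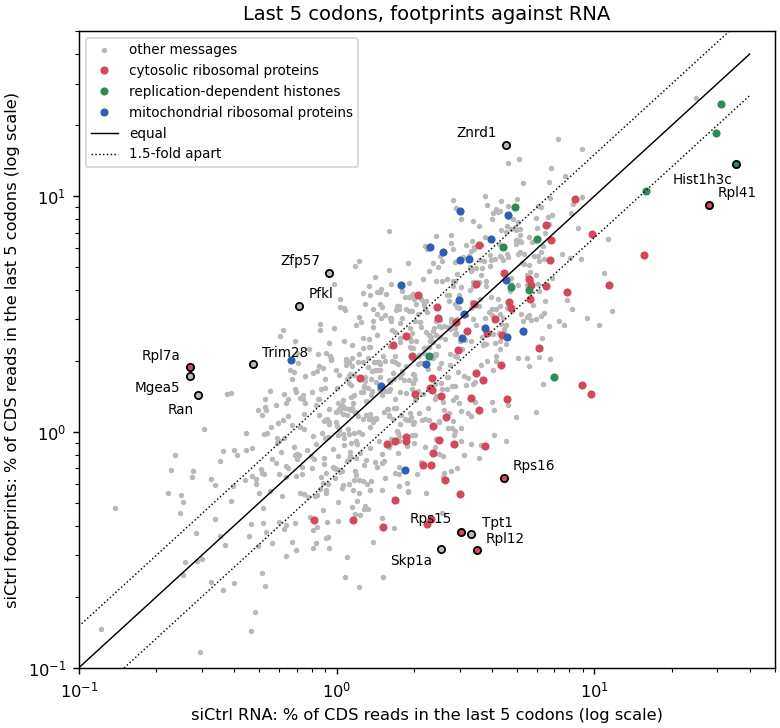
Percent of CDS reads in the last 5 codons in siCtrl RNA (x axis) and siCtrl footprints (y axis), log scales, for the 922 messages with at least 10 RNA reads there, with the solid line at equal shares and dotted lines 1.5-fold apart. Cytosolic ribosomal proteins (red) lie mostly below equality, down to Rpl12, with Rpl7a far above it.

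The highest ratios of footprint to RNA share in siCtrl came from proteins of different functions. Rpl7a, a protein of the large ribosomal subunit, had 388 footprints (1.89%) and 45 RNA reads (0.269%) in the window in siCtrl, and 344 (2.04%) and 37 (0.303%) in siPKM. The log2 ratios of Rpl7a were 2.79 (2.35 to 3.24) and 2.73 (2.25 to 3.22). Mgea5 (Oga), the enzyme that removes O-GlcNAc from proteins, stood at 2.63 and 1.82, on 12 and 24 RNA reads. Zfp57, a zinc finger protein that maintains genomic imprints, stood at 2.31 and 1.29. Ran, the GTPase of nuclear transport, stood at 2.28 and 2.09, and Pfkl, a phosphofructokinase of glycolysis, at 2.25 and 2.27. These 5 were ranked in siCtrl alone, and in siPKM each was also more than 1.5-fold above its RNA share, with an interval above 0. The choice of messages used the siPKM footprints too, so these siPKM intervals are no separate support. The ratios of these 5 messages rest on 12 to 48 RNA reads in a window, which limits their precision.

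The lowest ratios were found in 3 ribosomal proteins, Tpt1 and Skp1a. Rpl12, a protein of the large subunit, had 63 footprints (0.315%) against 1239 RNA reads (3.50%) in siCtrl, and 49 (0.276%) against 1037 (3.36%) in siPKM. Its log2 ratios were -3.46 (-3.82 to -3.10) and -3.59 (-4.00 to -3.18). Tpt1, the translationally controlled tumor protein, had 88 footprints in siCtrl and 88 in siPKM (0.370% and 0.399%) against 312 and 303 RNA reads (3.33% and 3.57%), with ratios of -3.16 and -3.15. Rps15 stood at -3.01 and -2.91, Skp1a (Skp1), an adaptor of SCF ubiquitin ligases, at -2.98 and -2.73, and Rps16 at -2.79 and -3.16. In these 5 messages the upper bound of each ratio's interval lay below -2 in both conditions. Ribosomal protein genes have many processed pseudogenes, and the part of reads with several matches was not tested.

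**Figure D3:**
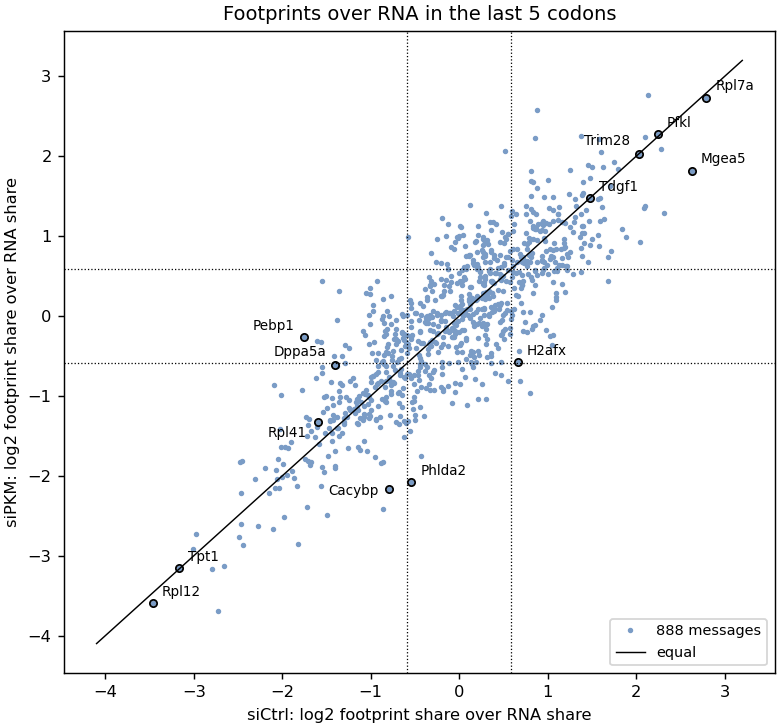
Log2 of the footprint share over the RNA share in the last 5 codons in siCtrl (x axis) and siPKM (y axis) for the 888 messages with at least 10 RNA reads there in both RNA libraries. Rpl7a (2.79 and 2.73) lies at the upper end and Rpl12 (-3.46 and -3.59) at the lower end. Messages higher or lower in one condition were mostly so in the other, and this was not counted over all rows.

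Functional groups were then described over their messages with 10 RNA reads in both RNA libraries. Cytosolic ribosomal proteins, of which 70 of 79 in the table were among the 980 messages, held 24.3% of the footprints in the window. Their median footprint share was 1.74% and 1.78% in siCtrl and siPKM, below RNA medians of 3.12% and 3.06%. The median log2 ratio was -0.88 and -0.90, with 41 of 69 at least 1.5-fold below RNA and 2 above in siCtrl, and 42 below and 3 above in siPKM. Without the first 15 codons in the denominator the medians were -0.79 and -0.71. Across all 888 messages, which were chosen by footprints, the medians were 0.00 in both conditions. Over all rows with 10 RNA reads in the window the medians were -0.74 in both. There 55.3% of rows in siCtrl and 54.8% in siPKM were at least 1.5-fold below RNA, and 11.2% and 12.3% above. The medians of the list thus lay nearer to all rows than to the 888 messages.

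Mitochondrial ribosomal proteins, which make up the separate ribosome of the mitochondrion and are made in the cytosol, lay higher. Only 33.3% of them reached the threshold, against 88.6% of the cytosolic ones. The threshold favours high footprint shares where few messages of a list reach it, so nothing is read from the difference between these lists. Among the 980 messages were 24 of 72, with median footprint shares of 3.50% and 3.80% and RNA medians of 2.79% and 2.48%. The median log2 ratio of the 19 with enough RNA reads was 0.27 and 0.40 in siCtrl and siPKM, with 9 above and 3 below 1.5-fold in siCtrl and 9 and 3 in siPKM. Mrpl51 had 94 and 108 footprints in the window (8.63% and 12.2%), against 40 and 33 RNA reads (3.02% and 3.31%). Mrpl17 stood at log2 ratios of 1.21 and 0.77 and Mrpl13 at 1.39 and 1.04.

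Histones were split by kind. Replication-dependent histones (12 of 16 in the table) had median footprint shares of 6.31% and 5.93% and a median log2 ratio to RNA of -0.34 in siCtrl and -0.24 in siPKM, over 11 messages, and without the first 15 codons in the denominator these medians turned to 0.07 and 0.21. The linker histone Hist1h1d (H1f3) had 1029 and 716 footprints in the window (6.06% and 6.34%) against RNA shares of 4.41% and 4.59%. Variant histones, which are made outside S phase as well, numbered 6 of 6, with median log2 ratios of 0.53 and 0.78. H2afz stood at 0.55 and 1.02 and H3f3b at 0.16 and 0.64, while H2afx (H2ax) stood at 0.67 and -0.57, above its RNA in siCtrl and below it in siPKM. Without the first 15 codons in the denominator H2afx stood at 0.98 and -0.15.

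The 57 respiratory chain messages (of 82) had median footprint shares of 3.23% and 3.35% and median log2 ratios of -0.20 and -0.18. In siCtrl 9 were above and 23 below 1.5-fold, and in siPKM 12 and 21. Over all rows with 10 RNA reads in the window, 11.2% were above and 55.3% below in siCtrl, and 12.3% and 54.8% in siPKM. Ndufa4 had 365 and 384 footprints in the window (8.06% and 9.57%), against RNA shares of 5.92% and 6.30%. Cycs, cytochrome c, had 301 and 259 (7.50% and 7.26%), against 4.59% and 5.06%. Both were above their RNA. Atp5l of the ATP synthase stood at 5.81% and 6.30% against 6.22% and 5.05%, and its siCtrl log2 ratio of -0.10 became 0.15 without the first 15 codons.

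Translation factors (31 of 41) had median log2 ratios of -0.13 and -0.08. Btf3, a subunit of the nascent polypeptide-associated complex, stood at 0.82 and 0.74, Eif4a1, the initiation helicase, at 0.28 and 0.09, and Eef1b2, an exchange factor for elongation factor 1A, at -0.66 and -0.52. Proteins of RNA binding and splicing (37 of 46) had medians of -0.02 and -0.10, with Hnrnpc at 1.02 and 1.35, Hnrnpu at 0.25 and -0.12 and the nucleolar chaperone Npm1 at -0.78 and -0.97. These groups held messages on both sides of their RNA.

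Proteasome and chaperonin subunits (31 of 48) had median log2 ratios of -0.07 and -0.05, with Psma3 at 0.77 and 0.62, Psma6 at 0.21 and 0.80 and Cct6a at -0.47 and -0.31. Cytosolic and mitochondrial heat shock proteins (10 of 13) stood at -0.27 and -0.23, with Hspa8 at 0.29 and 0.27, and ER chaperones (11 of 31) at -0.07 and -0.07, with Hsp90b1 at 0.15 and -0.07, Hspa5 at 0.17 and -0.13 and Pdia3 at 0.51 and 0.99. Medians of these 3 groups were close to 0 or slightly below it in both conditions.

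Cytoskeletal proteins (12 of 20) had low medians, -0.90 and -1.45, with 8 of 12 at least 1.5-fold below RNA in siCtrl, 7 in siPKM, and 0 above in either. The members with the most footprints did not share this, with Cfl1, the actin-severing cofilin, at 0.11 and 0.22, Tmsb10 at 0.07 and 0.08 and Tmsb4x at 0.06 and 0.49. Glycolytic enzymes (5 of 14) had medians of -0.75 and -0.82, with 3 at least 1.5-fold below RNA and 1 above in each condition. They ranged from -2.15 to 2.25 in siCtrl, with Pfkl at the upper end and Tpi1 at -0.75 and -0.82. Over all rows with 10 RNA reads in the window, 55.3% in siCtrl and 54.8% in siPKM were at least 1.5-fold below RNA. Nothing is therefore read from the cytoskeletal and glycolytic counts. Pluripotency and stem cell genes (16 of 25) had medians of -0.13 in siCtrl and 0.18 in siPKM. Among them Tdgf1, the Nodal coreceptor Cripto, had 644 and 530 footprints in the window (6.79% and 6.77%) against RNA shares of 2.44% and 2.42%, with log2 ratios of 1.48 and 1.48. Dppa5a, an RNA-binding protein of early embryos, stood at -1.40 and -0.61, below its RNA in both conditions.

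**Figure D4:**
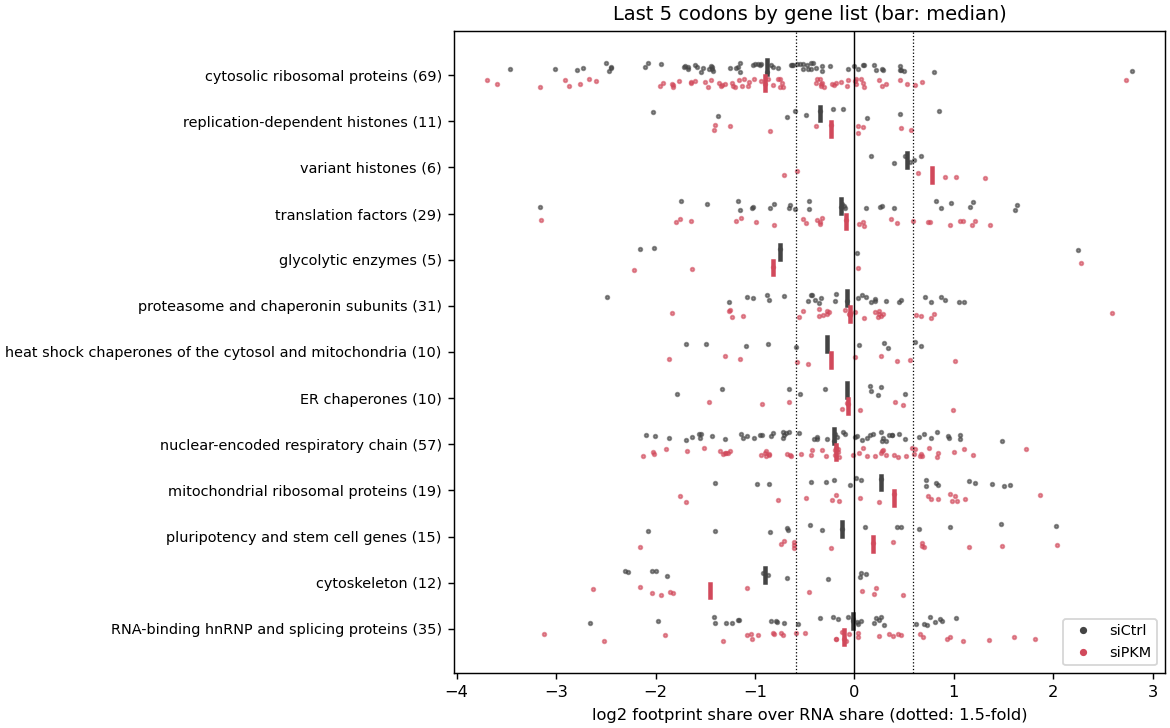
Log2 of the footprint share over the RNA share in the last 5 codons for the messages of 13 gene lists in siCtrl and siPKM, with bars at the medians and dotted lines at 1.5-fold. Cytosolic ribosomal proteins (medians -0.88 and -0.90) and cytoskeletal proteins (-0.90 and -1.45) lie mostly below 0. The medians of all rows with 10 RNA reads were -0.74 in both conditions. Variant histones (0.53 and 0.78) and mitochondrial ribosomal proteins (0.27 and 0.40) lie higher. The medians of replication-dependent histones (-0.34 and -0.24) turn above 0 when the first 15 codons leave the denominator. Messages were chosen by footprints in the window, and unequal parts of the lists passed, so differences between lists are a description.

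The knockdown was compared with the control by the log2 ratio of the siPKM over the siCtrl footprint share. The rule used the sum of both libraries and did not choose messages by this ratio. The footprint share was at least 1.5-fold higher in siPKM in 53 of 980 messages (5.41%) and at least 1.5-fold lower in 44 (4.49%), beside 24.5% higher and 21.9% lower of all 6535 rows. Over the 777 rows with 30 to 59 footprints in the window 17.2% were higher and 16.1% lower, so the share of rows past 1.5-fold was smaller where more footprints were counted. Set against the median ratio of all rows, a shift of 0.06, 36 messages were higher and 59 lower. The part of higher calls went from 54.6% to 37.9%. That centre rests on rows with a median of 6 (siCtrl) and 5 (siPKM) footprints in the window. The median ratio of the rows with 30 to 59 footprints was -0.01, so the direction of this split depends on the centre. The 980 ratios had a median of 0.02, and the middle 50% of messages lay between -0.20 and 0.23. Of the called messages, 46 higher (4.69% of 980) and 39 lower ones (3.98%) had an interval that left out 0. Over all rows these were 2.97% and 2.00%. Intervals are narrower where more footprints were counted, so nothing is read from that difference. At 2-fold, 5 messages were higher and 3 lower, and calls at 2-fold were not counted over all rows.

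RNA shares of the same window varied about as much. Of the 888 messages with 10 RNA reads in both RNA libraries, 62 (6.98%) had an RNA share at least 1.5-fold higher in siPKM and 61 (6.87%) lower, against 12.1% and 9.15% of all 2349 rows with 10 RNA reads. Across these 888 messages the footprint and RNA ratios had a Spearman correlation of -0.02. When the RNA ratio was subtracted from the footprint ratio, 126 messages (14.2%) were at least 1.5-fold higher and 114 (12.8%) lower. Over the 2349 rows these were 22.2% and 21.8%. Subtraction adds the counting error of the RNA window, which had a median of 51 reads in siCtrl and 42 in siPKM over the 980 messages.

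The lowest siPKM over siCtrl ratios were those of Mrpl20, Phlda2, Cacybp, Igf2bp1, Cenpa and Polr2e. Mrpl20, of the mitochondrial ribosome, had 57 footprints in the window in siCtrl (2.77%) and 15 in siPKM (0.966%), a log2 ratio of -1.48 (-2.29 to -0.68). Its RNA reads were 69 (3.75%) and 46 (3.33%). Phlda2, an imprinted regulator of placental growth, had 59 footprints (1.91%) and 14 (0.813%), against 23 RNA reads (2.75%) and 18 (3.47%). Cacybp, a protein that binds calcyclin, had 117 footprints (1.20%) and 38 (0.535%), a log2 ratio of -1.16 (-1.68 to -0.64), against 148 RNA reads (2.09%) and 119 (2.42%). Footprints in the window were fewer in siPKM for these 3, while the intervals of their RNA shares overlapped between the conditions. Igf2bp1, an RNA-binding protein, stood at -0.96 (0.591% and 0.301%), Cenpa, the histone H3 variant of centromeres, at -0.89 (3.60% and 1.91%) and Polr2e, a subunit shared by the nuclear RNA polymerases, at -0.88 (2.94% and 1.59%). With the RNA ratio subtracted, these 6 stood between -1.54 (Phlda2) and -1.11 (Cenpa), and their intervals left out 0. The subtracted values contain the ranked footprint ratio, so these intervals are no separate support.

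The highest ratios were those of Mrpl50, Pebp1, Spr, Ube2n, Uchl5 and Sarnp. Mrpl50, also of the mitochondrial ribosome, had 18 footprints in the window in siCtrl (1.47%) and 44 in siPKM (4.40%), a log2 ratio of 1.56 (0.78 to 2.33), on 9 and 4 RNA reads. Pebp1, an inhibitor of the kinase Raf, had 39 (0.556%) and 68 (1.24%), a log2 ratio of 1.15 (0.59 to 1.72), against 93 RNA reads (1.90%) and 53 (1.5%). Spr, the sepiapterin reductase of tetrahydrobiopterin synthesis, had 38 (2.79%) and 68 (6.17%), against 29 and 29 RNA reads (2.13% and 2.70%). For these 3 messages footprints in the window were more numerous in siPKM, the smaller of the footprint libraries. Ube2n, a ubiquitin-conjugating enzyme, stood at 1.04 (1.34% and 2.79%), Uchl5, a deubiquitinase of the proteasome, at 1.03 (1.32% and 2.71%) and Sarnp, an mRNA export factor, at 0.99 (1.12% and 2.24%). With the RNA ratio subtracted, Spr (0.80, -0.12 to 1.71) and Uchl5 (0.72, -0.52 to 1.96) had intervals that held 0. Pebp1, Ube2n and Sarnp had intervals above 0. Here too the subtracted values contain the ranked footprint ratio, so the intervals are no separate support. Mrpl50 had fewer than 10 RNA reads in the window in both RNA libraries, so its ratio was not set against RNA. These 12 messages are the ends of the ranking and had 62 to 172 footprints in the window over both libraries.

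**Figure D5:**
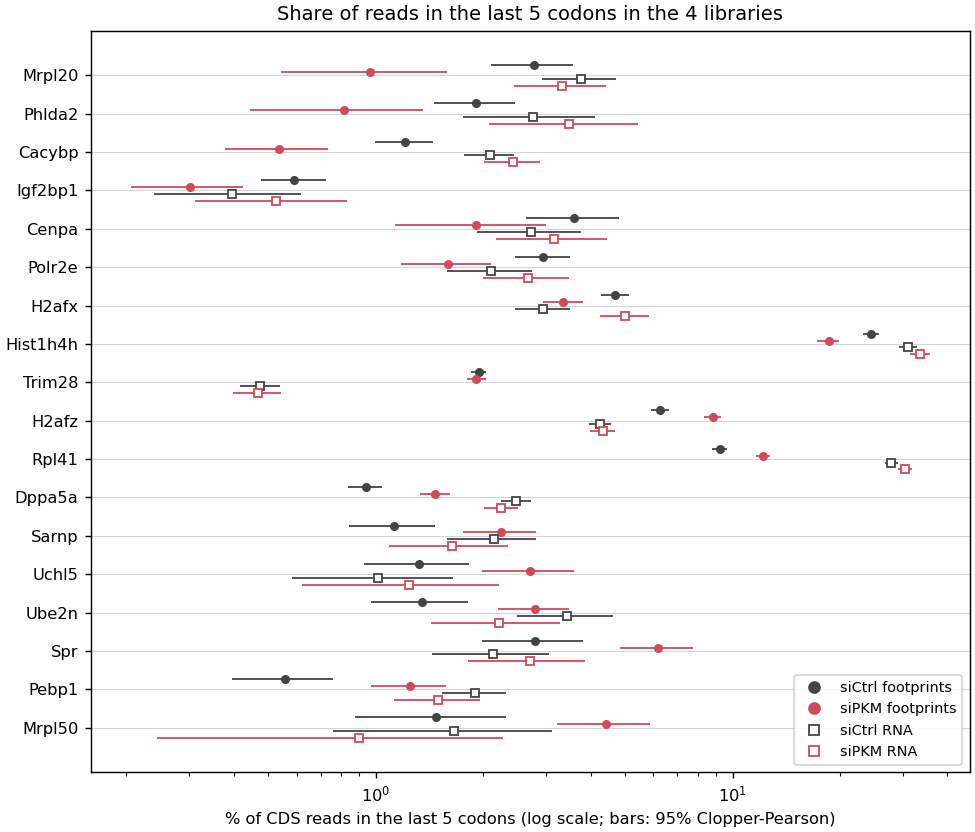
Percent of CDS reads in the last 5 codons (log scale) in the siCtrl and siPKM footprint and RNA libraries for named messages, with 95% Clopper-Pearson intervals as bars. The footprint values are apart in opposite directions in Mrpl20 (2.77% and 0.966%) and Mrpl50 (1.47% and 4.40%).

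Among messages with more footprints in the window, differences between the conditions were smaller and better counted. H2afz had 1080 footprints there in siCtrl (6.25%, 5.89 to 6.62) and 1202 in siPKM (8.79%, 8.32 to 9.28), a log2 ratio of 0.49 (0.38 to 0.61), while its RNA shares were 4.25% and 4.32%. H3f3b, a replacement histone H3, also stood at 0.49 (0.24 to 0.75), with 1.94% and 2.73% of footprints and RNA shares of 1.73% and 1.75%. The variant histone H2afx went the other way, with 4.68% and 3.35% (-0.48), while its RNA shares were 2.94% and 4.99%. Dppa5a had 319 footprints (0.936%) in siCtrl and 419 (1.47%) in siPKM, a log2 ratio of 0.65 (0.44 to 0.86), with RNA shares of 2.48% and 2.25%. Mrpl51 stood at 0.49 (0.12 to 0.87). For Rpl41 the log2 ratio of 0.40 (0.31 to 0.49) became 0.02 without the first 15 codons, and for Hist1h4h the ratio of -0.40 became -0.18.

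By list, the footprint shares of the conditions stayed close. The median log2 ratio of siPKM over siCtrl was 0.01 for cytosolic ribosomal proteins, with 0 of 70 at least 1.5-fold higher and 5 lower, and 0.04 for the respiratory chain, with 2 higher and 3 lower of 57. It was 0.08 for translation factors, with 3 higher and 1 lower of 31, 0.06 for proteasome and chaperonin subunits, with 2 and 3 of 31, and 0.11 for RNA-binding proteins, with 0 and 1 of 37. Mitochondrial ribosomal proteins stood at 0.09, with 1 higher and 2 lower of 24. ER chaperones had a median of 0.18, with 9 of 11 above 0, and glycolytic enzymes 0.16, with 4 of 5 above 0, and neither list had a message past 1.5-fold. Replication-dependent histones stood at -0.04, with 1 higher and 0 lower of 12, variant histones at 0.01, with 0 and 1 of 6, and pluripotency genes at 0.03, with 1 and 0 of 16. Heat shock proteins (0.04) and the cytoskeleton (0.03) had no message past 1.5-fold.

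Set against all rows in that way, the medians of cytosolic ribosomal proteins, variant histones, proteasome and chaperonin subunits and heat shock proteins went below 0. So did those of the respiratory chain, pluripotency genes and the cytoskeleton. These signs depend on that centre, which rests mostly on rows with few footprints. The 658 messages in none of the 13 lists had a median of -0.01, with 43 higher and 28 lower. Pkm itself had 487 footprints in the window in siCtrl (0.563%) and 144 in siPKM (0.629%), a log2 ratio of 0.16 (-0.10 to 0.43), and RNA shares of 0.553% and 0.613%. Its share of the window thus stayed within counting error while its message level was lower.

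Footprints past the stop codon were rare in these messages. Of CDS and 3' UTR footprints together, 0.203% lay in the 3' UTR in siCtrl and 0.188% in siPKM, against 25.6% and 25.8% of RNA reads. The row named mt-Nd4 alone gave 6538 of the 17961 siCtrl and 5455 of the 13643 siPKM footprints in 3' UTRs. Without it the values were 0.129% and 0.113%. The table's description of that row names another subunit than its symbol, so its identity is uncertain. The median message had 0.118% and 0.101%, with 61 messages at 0 reads in siCtrl and 97 in siPKM, and 50 and 43 messages at 1% or more. Messages under the threshold had medians of 0.135% and 0.100%.

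Near the threshold, 12 rows had exactly 60 footprints and another 12 had 59. Just inside, Dnmt3l, a cofactor of DNA methylation, had 37 and 23 footprints in the window (0.392% and 0.372%), Skp1a 29 and 31 (0.319% and 0.484%) and Higd2a, a factor of respiratory chain assembly, 33 and 27 (6.17% and 6.04%). Just outside, Rabif had 25 and 34 (4.24% and 7.41%), Mrpl12 36 and 23 (1.39% and 1.32%) and Thoc4 (Alyref), an mRNA export adaptor, 25 and 34 (0.704% and 1.30%). The 127 rows with 60 to 69 footprints had median shares of 1.5% in siCtrl and 1.36% in siPKM, and the 169 rows with 50 to 59 had 1.29% and 1.44%.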

How the data were processed

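Read counts per transcript region (5' UTR, first 15 codons, middle of the CDS, last 5 codons, 3' UTR) were used as the authors deposited them, as raw counts in 1 table for 2 RNA and 2 footprint libraries. Per the submitters' processing notes, cutadapt and Bowtie2 were used with build mm9. Versions, counting tool, strand use and handling of multi-mapping reads are not given in the sources used here. From these counts, shares were computed with exact Clopper-Pearson 95% intervals. Log2 ratios used 0.5 reads added to each count, with 95% intervals from the counts, and a fold of 1.5 as the threshold. Ratios to RNA needed 10 RNA reads in the window.

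The threshold, the messages and the gene lists were chosen with earlier results of these data known. Named messages were the 10 highest siCtrl shares, the 8 highest footprint sums, the 6 highest and 6 lowest siPKM over siCtrl ratios, the 5 highest and 5 lowest footprint over RNA ratios in siCtrl, 3 on each side of the threshold, those with the most footprints in each list, and Pkm. Where H2afz, H3f3b, H2afx, Dppa5a and Mrpl51 were picked from these for their siPKM over siCtrl ratio, the choice followed their values. Current symbols (in brackets) came from RefSeq, assembly GRCm38.p6, and 974 of 980 rows matched. Alternatives were other thresholds, folds, denominators, added reads and centring. Values were computed with Python 3.11.15, pandas 2.3.3 and scipy 1.17.1, and the ratio script was tested on simulated data. Libraries of crosslinked RNA from the same series were not analysed here.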

Additional observations from a re-analysis of the deposited data

How the results depend on the processing

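No paired analysis was possible because each condition had 1 library of each kind, and for the same reason no replicate could be left out. Shares are given as siCtrl RNA, siPKM RNA, siCtrl footprints and siPKM footprints. They were 2.18%, 2.15%, 1.78% and 1.81% without the first 15 codons in the denominator, 2.20%, 2.19%, 1.75% and 1.78% for the 540 messages with 120 footprints, and 1.87%, 1.84%, 1.45% and 1.48% for the 1757 with 30. Medians were 1.79%, 1.72%, 1.84% and 1.83%. Of alternatives chosen after seeing the data, a choice by 60 RNA reads gave 2.03%, 2.02%, 1.46% and 1.5%, and leaving out ribosomal proteins and replication-dependent histones gave 1.58%, 1.56%, 1.47% and 1.5%.

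Calls at 2-fold were made for the chosen messages only and not over all rows. Messages higher and lower in siPKM numbered 5 and 3 at 2-fold, 18 and 19 at 120 footprints, and 126 and 114 with the RNA ratio subtracted. Footprints above and below RNA numbered 122 and 155 in siCtrl and 116 and 156 in siPKM at 2-fold, 147 and 142, and 157 and 134, at 120 footprints, and 109 and 527, and 130 and 497, in rows chosen by RNA reads. Footprints in 3' UTRs were 0.129% and 0.113% without mt-Nd4, left out after seeing the data, and 0.118% and 0.101% as medians. Without the first 15 codons the log2 ratio of footprints to RNA changed sign in Rpl41 (0.59 in siCtrl and 0.53 in siPKM), Hist1h4h (0.69 and 0.46) and Hist1h2bb (0.066 and 0.21), and in siCtrl in Atp5l (0.15), Higd2a (0.35) and, on 9 RNA reads, Mrpl50 (0.024). The siPKM over siCtrl ratio changed sign in Hist1h3c (0.21) and Cycs (0.0053). Over all alternatives, 4 ratios of named messages that were past 1.5-fold turned (Rpl41 in both conditions, Hist1h4h in siPKM and Hist1h2bb in siCtrl), and of the other values 421 stayed inside their counting interval and 25 did not. A comparison of the end with the mean of the CDS per codon, and the last residues of each protein, were planned and not run, since no coding sequences were used here.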
